A study of Mus musculus with 12 samples.

Results

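The genes described here are targets of the transcription factor p53, a list of 35 genes made up of p53 itself (Trp53) and genes that p53 is known to switch on. Of the 35, 31 have at least 1 probe set of their own in the annotation used, 58 probe sets in all, out of 18193 genes on the array. The other 4 (Trp53, Bax, Fdxr and Gdf15) are not analysed here. RNA was measured on 12 Affymetrix mouse arrays in 4 groups of 3. Livers came from male C57BL/6 mice aged 3 months, 3 controls and 3 with an Alb-Cre knockout of SPS1 (selenophosphate synthetase 1, gene Sephs1), in which the albumin promoter drives Cre so that the gene is lost in hepatocytes while other liver cells keep it. F9 cells, a male 129 embryonal carcinoma line from a testicular teratoma, were measured as 3 controls and 3 samples with an shRNA against SPS1 (shSPS1). The labels do not say whether the F9 samples were separate cultures, so p-values there measure only the spread between these samples, which may be technical.

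Stress such as DNA damage keeps p53 from being degraded, and the protein then binds response elements near its targets and raises their transcription. The products halt the cell cycle, start apoptosis, repair DNA or adjust metabolism, and some of them, above all Mdm2, feed back to lower p53. Because p53 is controlled mainly at the protein level, its activity is usually read from its targets. Testicular germ cell tumours usually keep a wild-type p53 gene, and in liver p53 is best known for restraining tumour growth.

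The element that p53 binds is a decamer consensus repeated to give 20 letters, and it was looked for in RefSeq promoter windows (GRCm38.p6, 250 bases before to 50 after each annotated start), because it is the sequence that this list of genes is expected to share. Windows were given for 27 of the 35 genes, 36 windows in all, some of which overlap. The p53 decamer, which is its own reverse complement so that 1 strand covers both, matched without mismatch in 13 of the 36 windows (36.1%), against 8.36% of 32841 windows of all genes. A match of at least 19 of the 20 letters of the repeated element with no spacer, with the C and G at the core of both decamers required, was found in 4 of the 36 windows (11.1%) and in 0.067% of all windows. The genes were chosen as p53 targets, so this is a description of the list. All matches of at least 17 letters are printed 5′ to 3′ on the strand of the gene, with letters that match the consensus in capitals, to show which of the genes carry the element close to a start.
Ccng1 (chr11:40755462-40755481, minus strand): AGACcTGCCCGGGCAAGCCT
Cdkn1a (chr17:29090928-29090947, plus strand): GAACATGTCTtGACATGTTC
Gtse1 (chr15:85859945-85859964, plus strand): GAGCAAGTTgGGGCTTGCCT
Rps27l (chr9:66946296-66946315, plus strand): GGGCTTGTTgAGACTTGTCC
Bbc3 (chr7:16309486-16309505, plus strand): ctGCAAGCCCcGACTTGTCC
Aen (chr7:78895937-78895956, plus strand): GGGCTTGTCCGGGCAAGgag
Tigar (chr6:127109746-127109765, minus strand): GGtCTAGCTCtGGCAAGaCT
Sesn1 (chr10:41887266-41887285, plus strand): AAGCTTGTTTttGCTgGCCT
Trp53 (chr11:69580284-69580303, plus strand): GGACTTGCCCttACTTGTTa

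The first 4 match at 19 of 20 letters and the other 5 at 17. Of the 8 genes that rose in F9 cells (below), 6 have a window, 2 of these (Ccng1 and Mdm2) hold the decamer and 1 (Ccng1) the 19-letter match. Among the genes that did not pass in F9, 15 have a window and 8 hold the decamer. The windows of Ccng1, which rose, and of Cdkn1a, which did not, are shown whole for comparison, with decamers and the 20-letter match in capitals. The Cdkn1a window is that of the more upstream of its 2 annotated starts.
Ccng1 (chr11:40755237-40755536, minus strand): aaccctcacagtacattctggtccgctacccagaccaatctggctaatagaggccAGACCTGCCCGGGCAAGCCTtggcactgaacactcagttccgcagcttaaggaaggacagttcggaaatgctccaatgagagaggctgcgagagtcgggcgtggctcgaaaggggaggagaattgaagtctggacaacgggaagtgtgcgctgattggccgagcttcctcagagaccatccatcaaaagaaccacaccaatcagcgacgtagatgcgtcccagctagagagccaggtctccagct
Cdkn1a (chr17:29090729-29091028, plus strand): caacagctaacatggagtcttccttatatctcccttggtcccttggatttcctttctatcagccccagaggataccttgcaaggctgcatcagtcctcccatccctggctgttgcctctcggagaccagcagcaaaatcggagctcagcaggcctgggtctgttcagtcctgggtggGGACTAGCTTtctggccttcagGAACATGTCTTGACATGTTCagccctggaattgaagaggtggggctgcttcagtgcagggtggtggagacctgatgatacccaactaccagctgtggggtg

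All levels below are deposited log2 signals of the brightest probe set of a gene within a tissue, and a difference of 1 is a 2-fold change. The F9 and liver arrays were deposited in separate tables and their scaling is not given, so no level of a p53 target is compared between them. Differences were tested with limma over all 18193 genes in each tissue, and the threshold was an adjusted p (Benjamini-Hochberg) under 0.05, so that rose, fell and passed refer to it. The markers of both labelled tissues were present: the mean of 6 embryonal carcinoma markers (Pou5f1, Sox2, Nanog, Utf1, Dppa5a, Tdgf1) was 12.66 to 12.98 on the F9 arrays and 2.95 to 3.93 on the liver arrays, and 6 hepatocyte markers averaged 4.70 to 4.999 on F9 and 14.98 to 15.59 on liver arrays. The targeted transcript, Sephs1, fell in F9 by 2.20 on the log2 scale (SE 0.07, limma adjusted p = 1.3e-05), from control arrays at 9.94 to 10.04 to knockdown arrays at 7.77 to 7.84. In the livers labelled knockout it was not lower (9.84 ± 0.10 in control and 10.03 ± 0.13 in knockout livers, SD, n = 3 each, limma adjusted p = 0.79), and as the deleted exons are not given in the labels, its probe sets do not check that label. The poly-A controls, spiked in before labelling, averaged 7.36 to 7.91 on the control and 6.03 to 7.17 on the knockdown F9 arrays. The hybridisation controls averaged 11.83 to 12.29 on the control and 12.65 to 12.74 on the knockout liver arrays. Each of these 2 differences had p = 0.1 in an exact two-sided permutation test, the smallest that 3 against 3 allows. The same p was found for the 3′ minus 5′ signal, a measure of RNA integrity, of Actb in F9 (1.304 to 1.34 in control, 0.95 to 1.19 in knockdown), of Gapdh in F9 (-0.01 to 0.05 in control, -0.20 to -0.04 in knockdown) and of Actb in liver (1.08 to 1.22 in control, 1.28 to 1.42 in knockout). The mean of 5 fibroblast markers was 6.23 to 6.29 on the control and 5.86 to 6.01 on the knockdown F9 arrays, with Thy1 lower and Vim higher. Among the F9 markers of other cell types, 1 of 7 macrophage markers rose (Cd68, 0.71) and 1 of 5 endothelial markers fell (Pecam1, -0.74). Of 8 markers of differentiating endoderm, Sox7 rose (0.71) and Lamb1 fell (-0.35). The remaining markers of these lists did not pass. The part of these shifts in the results was not tested.

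In F9 cells, 8 of the 31 measured p53 targets rose after the knockdown and 2 fell. Those that rose were Pmaip1, Ccng1, Plk2, Trp53inp1, Eda2r, Mdm2, Ercc5 and Phlda3, and those that fell were Dram1 and Tigar. Rises passed in 25.8% of the list, beside 2.56% of all genes, and falls passed in 4.64% of all genes. Most members were bright. With the dimmest 50% of genes left out, 27 members were tested, of which 10 rose and 2 fell. There 21.4% of all genes passed in either direction, against 7.2% with every gene kept. The differences of 24 members were above 0, with a median of 0.17 over the 31, against 46.8% and a median of -0.01 over all genes. In 18 members all 3 knockdown arrays lay above all 3 controls, and in 4 they lay below. Over all genes such separation was seen in 12.2% upward and 15.7% downward (27.9% together). At an unadjusted p under 0.05 there were 13 members higher, against 8.92% of all genes. In bulk RNA, fewer cells of a type and less RNA per cell cannot be told apart. In the livers 0 of the 31 passed (limma), beside 0.044% of all genes. At an unadjusted p under 0.05 there was 1 member in liver, beside 7.28% of all genes.

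**Figure D1:**
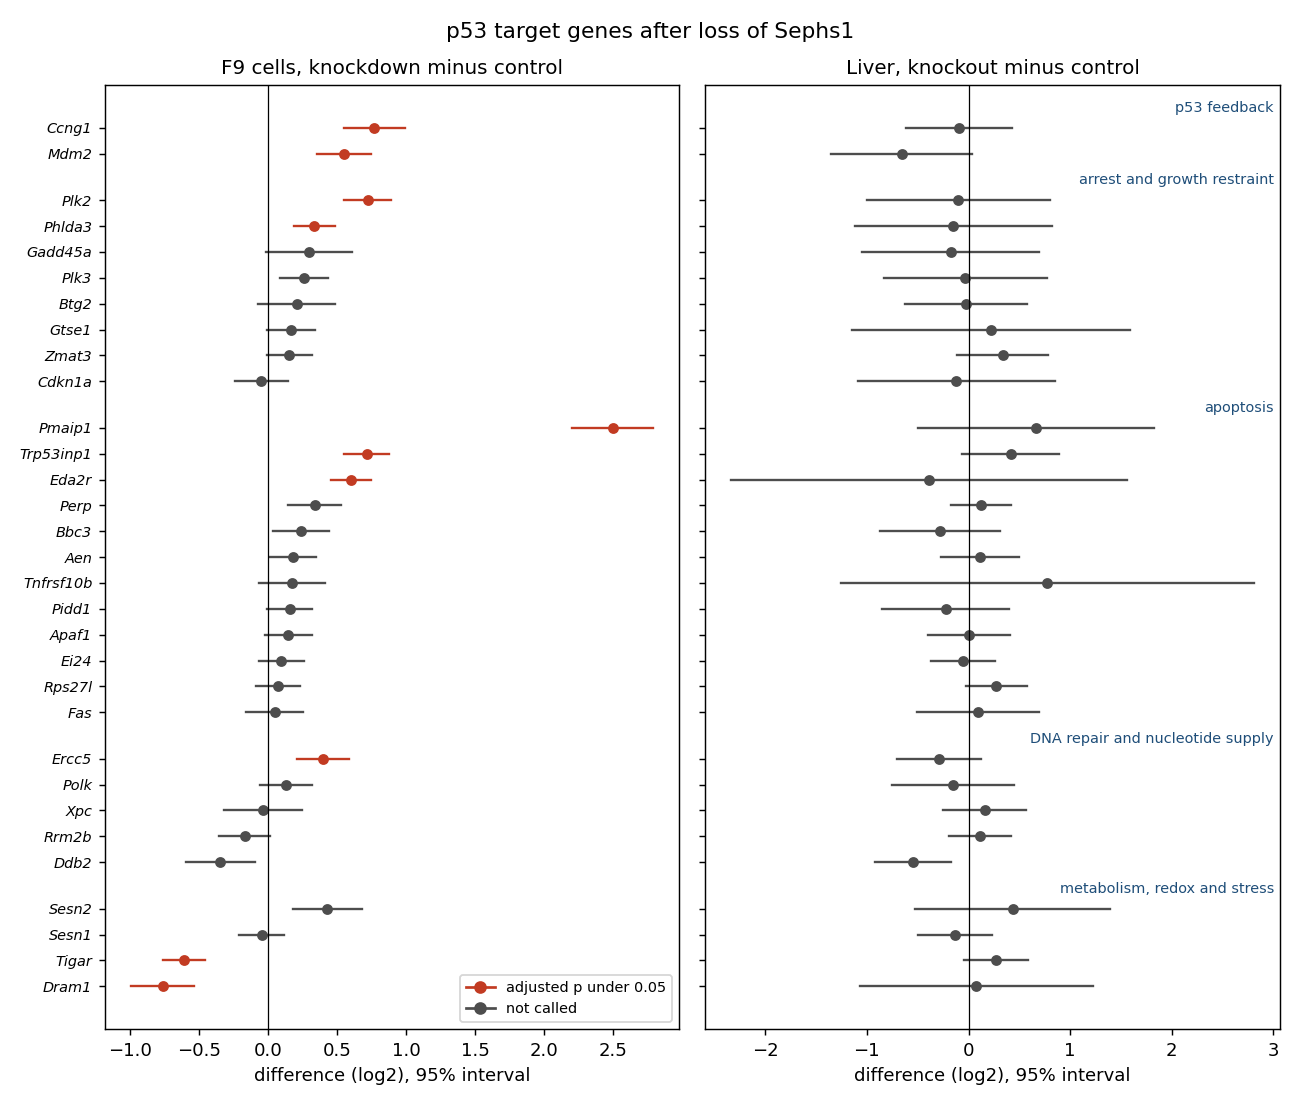
Difference in log2 signal (x axis) with its 95% interval from limma for each of the 31 measured p53 targets, ordered by function, in F9 cells on the left and liver on the right; the x axes differ in scale. Red marks the 10 genes with an adjusted p under 0.05, all of them in F9, where Pmaip1 stands apart at 2.49; the liver intervals are mostly wider and none is red.

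Both genes of p53 feedback rose in F9 cells. Mdm2, the ubiquitin ligase that marks p53 for degradation, had 9.68, 9.78 and 9.93 on the control arrays and 10.44, 10.28 and 10.32 on the knockdown arrays. Its groups did not overlap, and it rose by 0.55 (SE 0.08, 1.46-fold, limma adjusted p = 0.0080). Ccng1, cyclin G1, which recruits a phosphatase to Mdm2, had 10.35, 10.68 and 10.65 in control and 11.34, 11.34 and 11.31 in knockdown cells. The 3 knockdown arrays lay close together above all controls, a rise of 0.77 (SE 0.10, 1.70-fold, limma adjusted p = 0.0031). The other 2 probe sets of Ccng1 rose as well (0.52 and 0.75), and those of Mdm2 had 0.34 and 0.24 without passing. The Mdm2 probe set with 0.24 was dim, at a mean signal of 4.04.

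Of the 8 measured genes of arrest and growth restraint, 2 rose and 6 did not pass. Plk2, a polo-like kinase, had 8.74, 8.59 and 8.56 in control and 9.33, 9.37 and 9.34 in knockdown cells. It rose by 0.72 (SE 0.07, 1.65-fold, limma adjusted p = 0.0013), with a gap between the groups wider than the spread within them. Its second probe set, dim at a mean signal of 4.42, had 0.09. Phlda3, which restrains Akt signalling, was at 8.29 on all 3 control arrays and at 8.57, 8.61 and 8.69 on the knockdown arrays, a rise of 0.33 (SE 0.06, limma adjusted p = 0.020). Cdkn1a, which encodes the cell cycle inhibitor p21 and is the best known p53 target, had 8.74, 8.52 and 8.63 in control and 8.58, 8.49 and 8.66 in knockdown cells. These groups overlapped, and the difference was -0.05 (SE 0.08, 95% interval -0.24 to 0.14, limma adjusted p = 0.80), so a rise as large as that of Mdm2 lies outside its interval. The second probe set of Cdkn1a had 0.07. The sign of the Cdkn1a difference turned to 0.01 without control array 1. Gadd45a (0.30), Plk3 (0.26), Btg2 (0.21), Gtse1 (0.16) and Zmat3 (0.15) had positive differences that did not pass (limma adjusted p = 0.086 for Plk3 and 0.26 to 0.40 for the other 4). Of these 5, Btg2 was the one whose groups overlapped.

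Among the 12 measured apoptosis genes 3 rose, 0 fell and all 12 differences were above 0. Pmaip1, which encodes the BH3-only protein Noxa, had 4.30, 3.85 and 3.81 in control and 6.46, 6.43 and 6.55 in knockdown cells. It rose by 2.49 (SE 0.13, limma adjusted p = 8.5e-05), with wide separation of the groups. The control signal was not shown to be above background: hepatocyte markers in the control F9 cells read 4.34 for Cps1 and 3.94 for Cyp2e1, so no exact fold is given. Trp53inp1, a stress protein that supports p53 activity and autophagy, had 11.31, 11.30 and 11.33 in control and 12.12, 12.01 and 11.95 in knockdown cells, a rise of 0.71 (SE 0.07, 1.64-fold, limma adjusted p = 0.0011). Its second probe set rose by 0.54. Eda2r, the receptor of ectodysplasin A2, had 9.29, 9.33 and 9.30 in control and 9.96, 9.90 and 9.86 in knockdown cells (rise of 0.60, SE 0.06, 1.52-fold, limma adjusted p = 0.0015). In each of these 3 genes the groups were far apart compared with the spread between arrays.

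The other 9 apoptosis genes had smaller differences. Perp, a membrane protein of cell junctions, had 9.27, 9.51 and 9.51 in control and 9.77, 9.74 and 9.79 in knockdown cells (0.34, limma adjusted p = 0.0503, just over the threshold). Bbc3, which encodes the BH3-only protein Puma, had 6.81, 7.02 and 7.08 in control and 7.13, 7.29 and 7.20 in knockdown cells, groups that did not overlap (0.24, SE 0.09, limma adjusted p = 0.17). Noxa and Puma are thus both BH3-only products of p53 targets, and 1 of the 2 transcripts passed. Aen, an exonuclease of apoptotic DNA breakdown, had 0.18 in its brightest probe set, which did not pass, while 1 of its other 3 probe sets rose by 0.67. Tnfrsf10b (0.17), Pidd1 (0.15), Apaf1 (0.15), Ei24 (0.09), Rps27l (0.07) and Fas (0.05) complete the group. Fas, a death receptor, was the 1 member in the dimmest 25% of all genes in F9, which limits what its value shows.

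**Figure D2:**
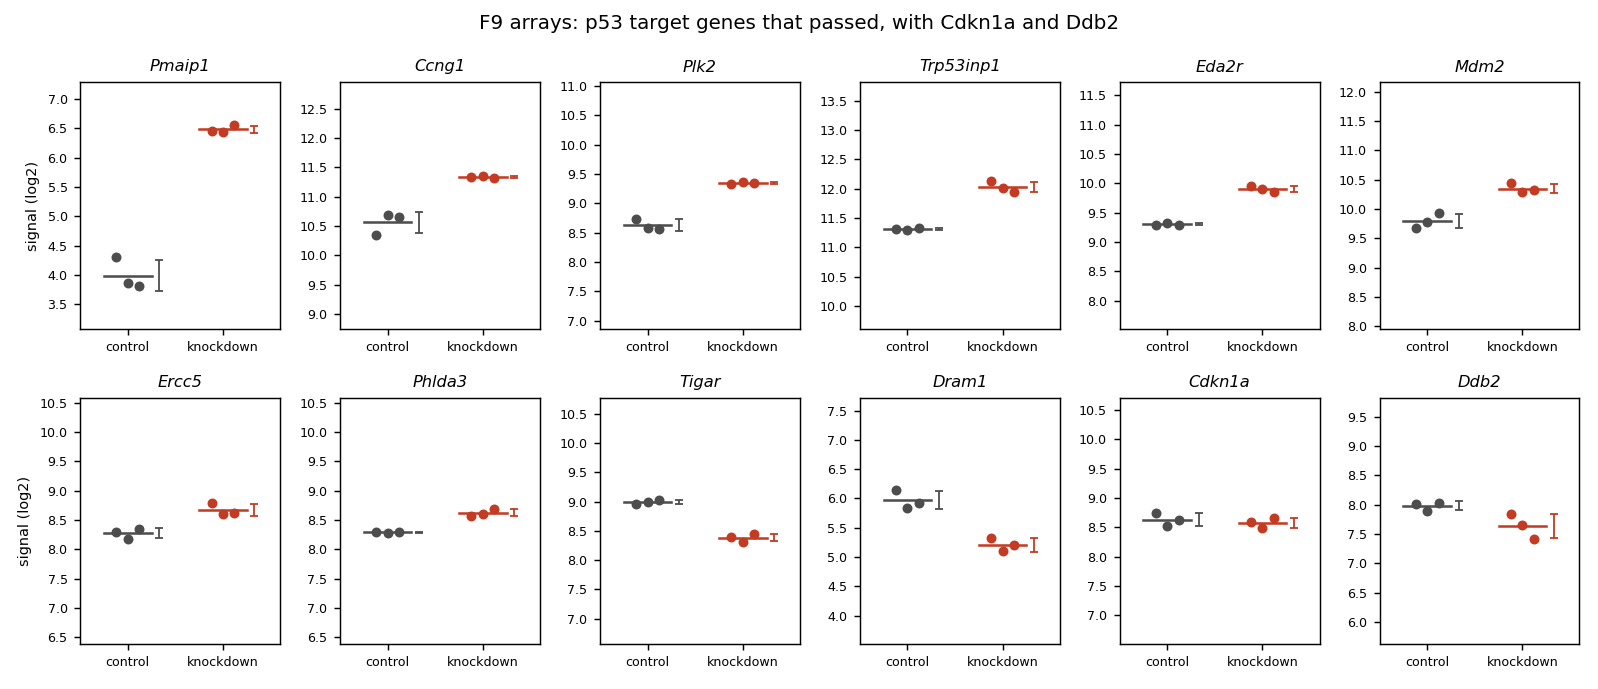
Log2 signal (y axis) on each of the 3 control (grey) and 3 knockdown (red) F9 arrays for the 10 p53 targets that passed and for Cdkn1a and Ddb2; points are arrays, lines group means, bars 1 SD, and every panel spans the same number of log2 units. The groups are separate in all panels but that of Cdkn1a, and Pmaip1 has the widest gap.

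Of the 5 genes of DNA repair and nucleotide supply, 1 rose. Ercc5, the XPG endonuclease of nucleotide excision repair, had 8.30, 8.18 and 8.34 in control and 8.79, 8.60 and 8.62 in knockdown cells, a rise of 0.40 (SE 0.08, limma adjusted p = 0.025). Its second probe set had -0.26, but at a mean signal of 3.62, against 8.47 for the brightest, and was not shown to be above background. With the mean of both Ercc5 did not pass (0.07, limma adjusted p = 0.73). Ddb2, which recognises ultraviolet damage in the same repair pathway, had 8.01, 7.90 and 8.04 in control and 7.84, 7.66 and 7.42 in knockdown cells. All knockdown arrays were below all controls, but the difference of -0.35 (SE 0.11) did not pass (limma adjusted p = 0.11). The second probe set of Ddb2 had -0.15. Rrm2b, a p53-induced subunit of ribonucleotide reductase, had -0.17, Xpc -0.04 and the translesion polymerase gene Polk 0.13.

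The 4 measured genes of metabolism and stress held both of the falls. Dram1, a lysosomal membrane protein that promotes autophagy, had 6.14, 5.84 and 5.93 in control and 5.33, 5.10 and 5.20 in knockdown cells, and fell by 0.76 on the log2 scale (SE 0.10, limma adjusted p = 0.0038). It is measured by 1 probe set. The Dram1 signal was not shown to be above background: hepatocyte markers in the control F9 cells ran from 3.94 (Cyp2e1) to 5.81 (Tat). Tigar, a phosphatase that slows glycolysis, had 8.96, 8.99 and 9.03 in control and 8.40, 8.32 and 8.44 in knockdown cells in its brightest probe set (fell by 0.61, SE 0.07, limma adjusted p = 0.0017). Its 3 probe sets disagreed: the next brightest rose by 0.34 (adjusted p = 0.034 over all probe sets, limma) and the third had -0.13, so that with their mean Tigar did not pass (-0.13, adjusted p = 0.25). The direction of Tigar in F9 thus depends on the probe set. The sestrin genes, whose products restrain mTORC1, had 0.43 for Sesn2 (8.42, 8.72 and 8.83 in control, 9.06, 9.04 and 9.15 in knockdown cells, limma adjusted p = 0.056) and -0.05 for Sesn1. The brightest probe set of Sesn2 separated the groups, while its second had -0.06.

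**Figure D3:**
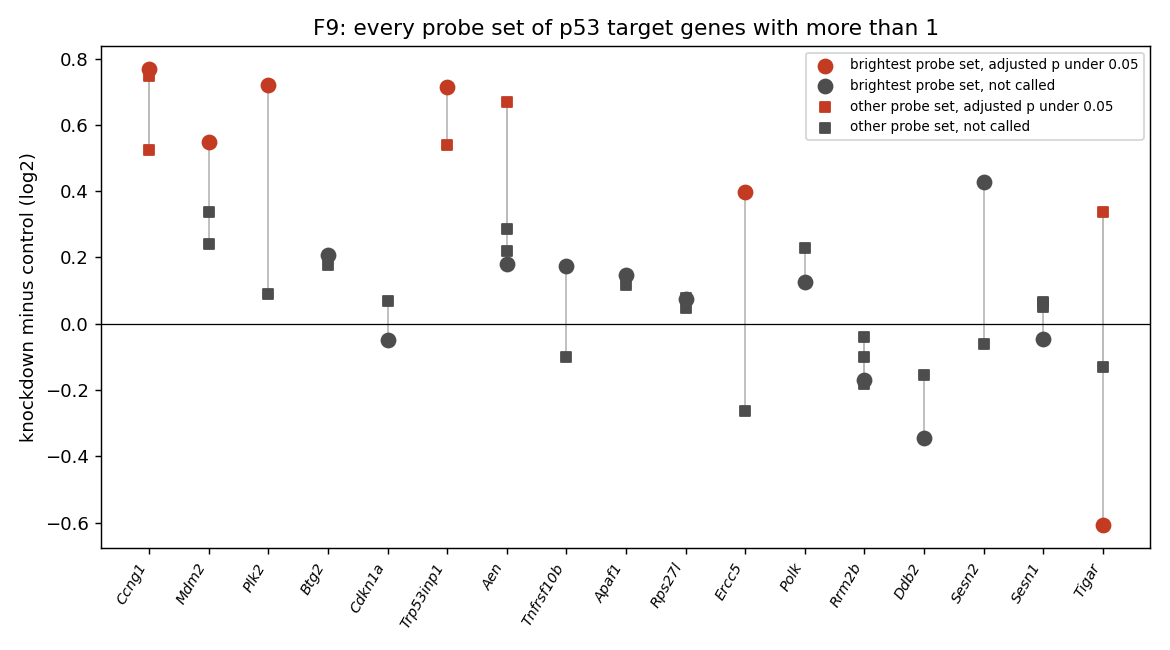
Knockdown minus control difference in F9 (log2, y axis) for every probe set of the p53 targets that have more than 1 (x axis); large circles are the brightest probe sets, small squares the others, and red marks an adjusted p under 0.05, for the brightest and the other probe sets alike after adjustment over all probe sets. The probe sets of Ccng1 and Trp53inp1 lie together above 0, while those of Tigar spread from -0.61 to 0.34 and that of Aen which passed is not its brightest.

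Leaving out 1 F9 array at a time left 6 to 10 members higher and the same 2 lower, and 8 of the 10 genes passed each time. Ercc5 and Phlda3 did not: with any 1 of control arrays 2 and 3 or knockdown arrays 2 and 3 left out both were lost, and Ercc5 also without knockdown array 1. Without control array 1, Perp and Sesn2 passed too.

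Genes of the p53 pathway outside the list were taken from 3 lists. Of 24 measured regulators of p53, among them Mdm4, Atm, Atr, Chek1, Chek2 and Usp7, 0 passed in F9 (limma), beside 7.2% of all genes. An unadjusted p under 0.05 was found for 4 of them, against 20.9% of all genes, and their median difference was 0.00. The deacetylase gene Sirt1 had the smallest p among them (10.65 ± 0.35 in control and 11.22 ± 0.04 in knockdown cells, SD, n = 3 each, limma adjusted p = 0.071). Of 22 further measured p53 targets 4 rose (18.2%, beside 2.56% of all genes) and 0 fell (4.64% of all genes), with a median of 0.08. These were Ddit4, an inhibitor of mTORC1 (0.46, SE 0.11, limma adjusted p = 0.040), Psrc1, a microtubule protein (0.45, SE 0.10, limma adjusted p = 0.030), Lif, a cytokine (0.38, SE 0.09, limma adjusted p = 0.046) and Ptprv, a phosphatase (0.35, SE 0.06, limma adjusted p = 0.013). None of the 4 passed in limma under every omission of 1 array. Over all genes such omissions also lowered the count that passed from 1310 to between 524 and 851, except for control array 1 (1452). Ptprv (adjusted p up to 0.061) and Psrc1 (up to 0.12) were lost when control array 2, control array 3, knockdown array 2 or knockdown array 3 was left out, and kept without either array numbered 1. Ddit4 passed only without control array 3 (otherwise up to 0.14) and Lif only without control array 2 (otherwise up to 0.17), and averaging the probe sets of Lif gave an adjusted p of 0.49. Of 14 measured cell cycle genes that p53 lowers through p21 and the DREAM complex, such as Cdk1, Ccnb2, Plk1 and Birc5, 0 passed (limma), beside 7.2% of all genes. An unadjusted p under 0.05 was found for 1 of them, against 20.9% of all genes. The 14 differences ran from -0.18 to 0.16, with a median of 0.06, and 10 were above 0 (71.4%, against 46.8% of all genes). In 6 of the 14 all knockdown arrays lay above all controls and in 0 below, against 12.2% and 15.7% of all genes.

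**Figure D4:**
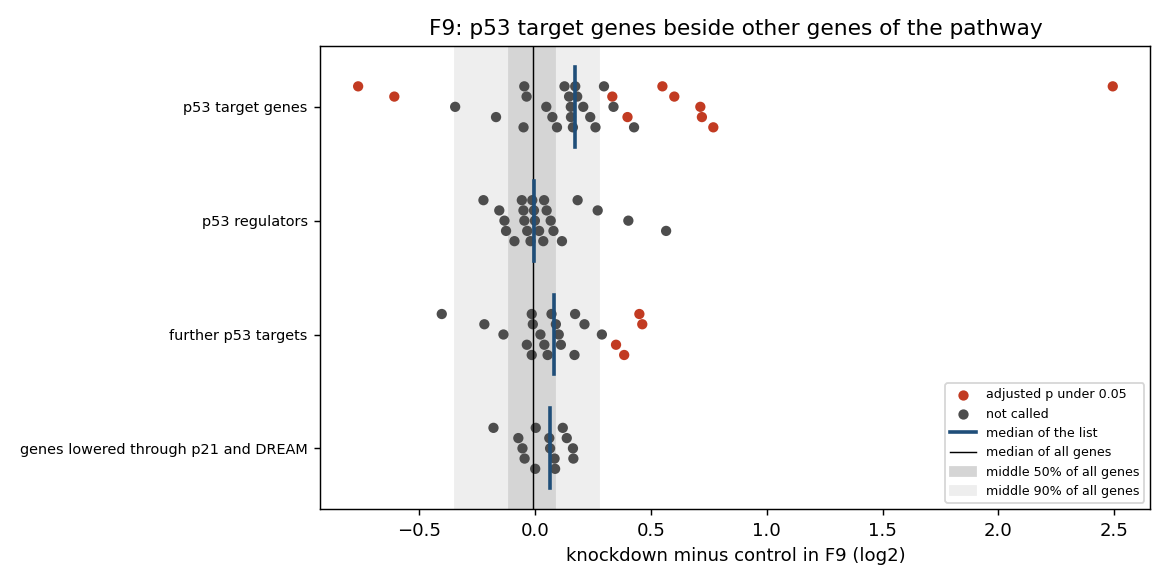
Knockdown minus control difference in F9 (log2, x axis) for each gene (points, red where the adjusted p was under 0.05) of the p53 targets and of the 3 other lists of the pathway, with the median of each list in blue and all 18193 genes as grey bands. The median of the p53 targets is 0.17, that of the further targets 0.08, and the genes lowered through p21 and DREAM stay within -0.18 and 0.16.

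In the livers the same 31 genes had 15 differences above and 16 below 0, with a median of -0.03 against 0.03 over all genes, of which 54.2% were above 0. Over all genes 0.044% passed in limma, 0.011% higher and 0.033% lower. At an unadjusted p under 0.05 there was 1 member in its brightest probe set, Ddb2, which was lower, against 7.28% of all genes (4.08% higher and 3.2% lower). Of the 58 member probe sets tested by themselves, 2 were higher and 3 lower at that unadjusted p, and 0 passed in limma. The groups did not overlap in 6 members, 3 higher (Zmat3, Rps27l, Tigar) and 3 lower (Mdm2, Ddb2, Ercc5), that is in 19.4% of the list and in 14.8% of all genes (8.42% higher and 6.36% lower). Liver arrays varied more than F9 arrays: the SD within groups was larger in 27 of the 31 members, and the 95% interval of a difference had a median width to each side of 0.60 in liver and 0.19 in F9. Hepatocyte markers averaged 14.98 to 15.34 in control and 15.52 to 15.59 in knockout livers, and 7 Kupffer cell and macrophage markers 9.86 to 10.27 and 9.46 to 10.04. Their part in these values was not tested.

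Mdm2 had 9.35, 9.70 and 9.28 in control and 8.95, 8.27 and 9.14 in knockout livers. All 3 knockout livers were below all controls, but the difference of -0.66 (SE 0.28, 95% interval -1.35 to 0.04) did not pass (limma adjusted p = 0.70). It was -0.40 without knockout array 2, and the other 2 probe sets of Mdm2 had -0.02 and 0.53, which gave -0.05 for the mean of all 3. Ccng1 had 10.67, 10.69 and 10.12 in control and 10.46, 10.23 and 10.52 in knockout livers, overlapping groups (-0.09). Cdkn1a was at 6.82, 7.06 and 7.14 in control and at 7.62, 6.15 and 6.90 in knockout livers, so its knockout livers lay on both sides of the controls (-0.12, 95% interval -1.09 to 0.85). The Cdkn1a difference was 0.25 without knockout array 2 and 0.97 in its second probe set.

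The other 6 genes that rose in F9 did not pass in liver. Pmaip1 had 4.27, 5.73 and 5.73 in control and 5.91, 6.26 and 5.55 in knockout livers (0.66, 95% interval -0.50 to 1.83). Trp53inp1 had 12.90, 13.23 and 12.72 in control and 13.22, 13.57 and 13.31 in knockout livers (0.42, SE 0.19, limma adjusted p = 0.71). Of the knockout livers 2 exceeded every control for Pmaip1 and 2 for Trp53inp1. Plk2 (8.76, 8.24 and 8.17 in control, 7.58, 8.70 and 8.58 in knockout livers) and Phlda3 (7.32, 7.15 and 6.82 in control, 6.13, 7.30 and 7.41 in knockout livers) had knockout array 1 as the lowest of all 6. Eda2r, with Tnfrsf10b 1 of the 2 members in the dimmest 25% of genes in liver, had 5.13, 5.55 and 5.29 in control and 5.69, 3.16 and 5.96 in knockout livers. Ercc5 had 9.65, 9.66 and 9.66 in control and 9.54, 9.48 and 9.09 in knockout livers, the opposite side from F9 (-0.29, SE 0.16, limma adjusted p = 0.74). Of the 8 genes that rose in F9, the liver 95% interval included the F9 difference in 4 and lay below it in 4. These genes were picked by their F9 values, and the count leaves out the SE of the F9 difference. It is therefore no test of a difference between the tissues.

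By function the smallest p-values in liver belonged to Mdm2, Zmat3, Rps27l, Ddb2 and Tigar. Ddb2 had 7.999, 7.88 and 7.95 in control and 7.58, 7.42 and 7.20 in knockout livers, a difference of -0.55 (SE 0.15, unadjusted p = 0.012, limma adjusted p = 0.53). Ddb2 was below 0 in both tissues, where all treated arrays lay below all controls, in different probe sets. The other probe set of Ddb2 had smaller differences, -0.15 in F9 and -0.18 in liver, and passed in neither. Rps27l, which encodes a ribosomal protein relative, had 14.31, 14.33 and 14.32 in control and 14.51, 14.68 and 14.59 in knockout livers (0.27, SE 0.12, limma adjusted p = 0.70). Its 3 probe sets had 0.23 to 0.27, and the names of 2 of them mark probes that may bind other transcripts. Zmat3, an RNA-binding protein, had 7.62, 7.59 and 7.46 in control and 7.72, 7.75 and 8.21 in knockout livers (0.34, SE 0.18, limma adjusted p = 0.73). Tigar had 8.25, 8.35 and 8.48 in control and 8.58, 8.68 and 8.65 in knockout livers in the probe set that was brightest there (0.27, SE 0.13, limma adjusted p = 0.71). That probe set is the one that rose by 0.34 in F9, while the probe set that fell in F9 had -0.08 in liver. Dram1, which fell in F9, had 4.87, 6.02 and 6.56 in control and 5.73, 5.79 and 6.16 in knockout livers (0.08).

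**Figure D5:**
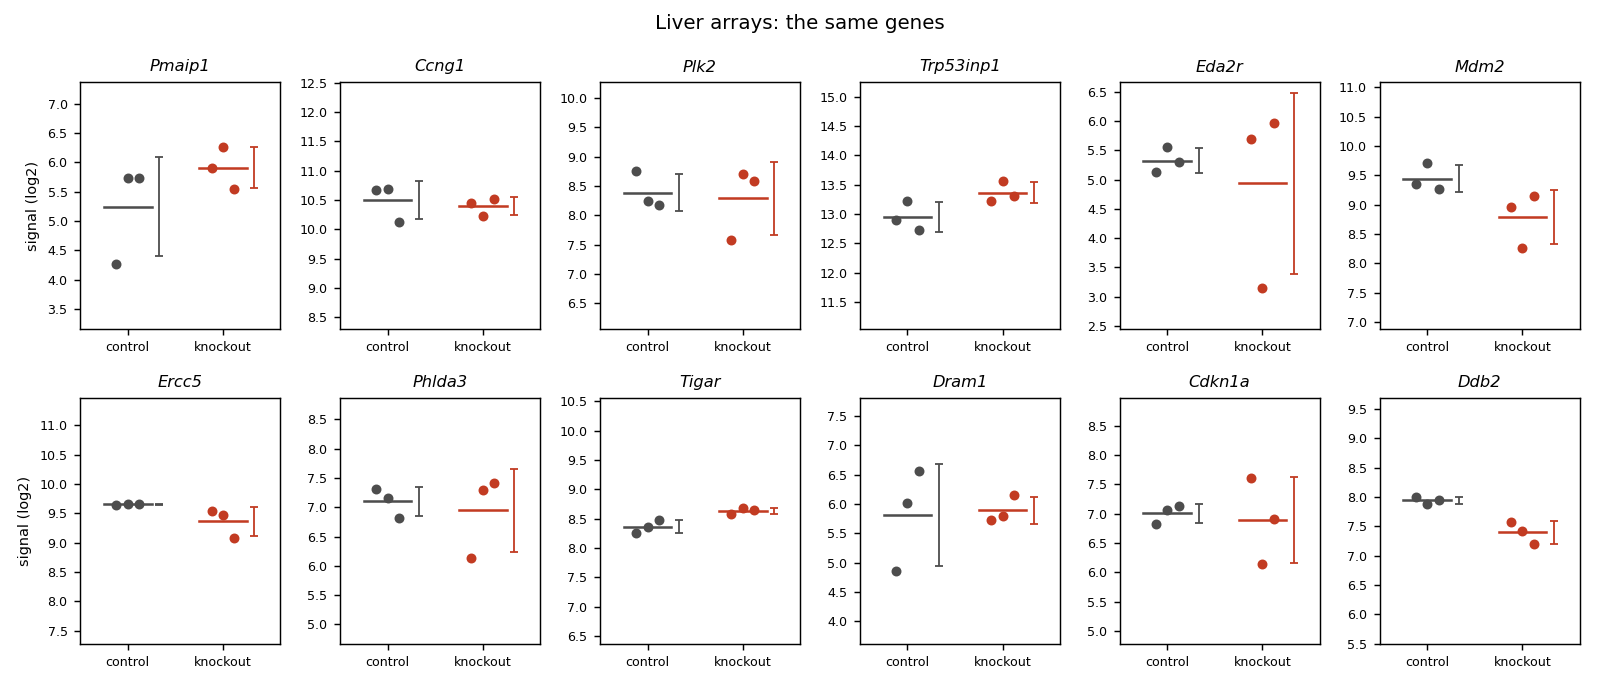
Log2 signal (y axis) on each of the 3 control (grey) and 3 knockout (red) liver arrays for the same 12 genes, drawn as for F9. The groups overlap in all panels except Mdm2, Ercc5, Tigar and Ddb2, and the spread within groups is wide in Pmaip1, Eda2r, Phlda3, Dram1 and Cdkn1a.

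Side by side, 11 members were above 0 in both tissues, 13 above 0 in F9 and below in liver, 4 below 0 in F9 and above in liver, and 3 below 0 in both. Of the 8 that rose in F9, 2 were above 0 in liver (Pmaip1 and Trp53inp1). The brightest probe set was the same in both tissues for 27 of the 31. The 2 comparisons share no array, and since the tables are separate and their scaling is not given, the difference between the tissues was not tested.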

How the data were processed

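Total RNA (100 ng per sample) was labelled with biotin by a 3' in vitro transcription kit and measured on Affymetrix mouse arrays, per the labels' protocols. The deposited values are log2 signals, and affy 1.38.1 and R 3.0.1 appear in the submitters' processing notes. The background correction, normalization and summary method are not given in the sources used here. The deposited log2 values of the liver arrays reach down to -3.17, while those of the F9 arrays start at 2.60. The values of the 12 arrays in the series' own table were identical to these.

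Of 45101 probe sets, 34945 with 1 gene symbol that are not Affymetrix controls were used (932 name several genes and 9211 have none listed). Entrez identifiers matched 34741 of these to RefSeq genes without altering a symbol. In each tissue the brightest probe set by mean over its 6 arrays stood for each of 18193 genes. Dim genes were kept, and limma 3.58.1 (R 4.3.3; lmFit, then eBayes) gave two-sided tests of treated against control. No detection calls were used, and the number of arrays limits the precision. On simulated data with known changes, the procedure recovered fewer changes of each size in the liver setting than in the F9 setting. The changed genes were drawn at random from all genes, so recovery for the p53 targets themselves was not measured.

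The members, gene lists, naming rule and alternatives were chosen with earlier results of these data known, so a list's direction is not independent evidence. The rule gives array values for Mdm2 and Cdkn1a, for members that passed in either tissue, and for the member with the smallest p in each function and tissue. Bbc3, Perp and Sesn2 were added after their values were seen. The alternatives tried were quantile normalization and median centring, averaging the probe sets of a gene or testing every probe set alone, removal of the dimmest 25% or 50% of genes, leaving out single arrays, a block on the replicate number, array weights, a robust prior with an intensity trend, and thresholds of 0.01 and 0.10.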

Additional observations from a re-analysis of the deposited data

Results flagged for a closer look

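In the brightest probe sets of 3 p53 targets, all treated arrays lay on one side of all controls in F9 and on the other side in liver. Mdm2 had 0.55 in F9 and -0.66 in liver, where its other 2 probe sets had -0.02 and 0.53 and the difference was -0.40 without knockout array 2. Ercc5 had 0.40 in F9, where the mean with its dim second probe set (signal 3.62) was 0.07, and -0.29 in liver. Tigar had -0.61 in F9 and 0.27 in liver, but in different probe sets: within one the values were 0.34 in F9 and 0.27 in liver, and within the other -0.61 in F9 and -0.08 in liver, so neither turned its sign between the tissues. For each of the 3 the difference between the tissues was not tested, and in liver none of the 3 passed in limma (adjusted p = 0.70, 0.74 and 0.71).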

How the results depend on the processing

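In F9 the count of members that passed upward was 8, with 6 to 10 when 1 array was left out, 6 with the replicate number as a block, and 9 to 11 under the other normalizations, filters, variance models and probe set means. With the mean of probe sets, which includes its dim second one, Ercc5 did not pass (0.07), while Aen and Perp did. With every probe set tested by itself 13 of 58 rose. The count that fell was 2, 1 with the mean of probe sets (Dram1) and 3 with array weights (with Ddb2). Without the dimmest 50% of genes the 2 were Tigar and Ddb2 (limma adjusted p = 0.047 for Ddb2), as Dram1 was not kept. With the replicate block Ercc5 and Phlda3 did not pass; the block changed no other call among the members. Over all genes 1310 passed in F9, 662 with the block, 524 to 1452 with 1 array left out, 1951 without the dimmest 50% of genes and 2285 with array weights. Same-numbered arrays of the 2 groups did not deviate together (correlations of -0.09, -0.02 and -0.07 in F9 and -0.06, 0.00 and 0.08 in liver), so the numbers were not taken to pair the samples. Mdm2, Ccng1, Plk2, Pmaip1, Trp53inp1, Eda2r and Dram1 passed in every setting in which they were tested, apart from single probe sets by themselves; Pmaip1 and Dram1 were not among the genes kept without the dimmest 50%. The member median in F9 ran from 0.14 to 0.22, and in liver from -0.05 to 0.10. In liver 0 members passed in limma in each of the settings run (1 to 5 at an unadjusted p under 0.05), and with the replicate block 0 of all genes passed. Signs turned for Cdkn1a in F9 (-0.11 to 0.0052 with 1 array left out, the highest without control array 1, 0.00017 after median centring, 0.0090 with the mean of probe sets, 0.068 in its second probe set), Ercc5 in F9 (-0.26 in its second probe set), Tigar in F9 (0.34 in another probe set), Cdkn1a in liver (-0.48 to 0.25 with 1 array left out, the highest without knockout array 2, 0.42 with the mean of probe sets, 0.97 in its second probe set), Mdm2 in liver (0.53 in another probe set, with -0.02 in the remaining one) and Tigar in liver (-0.0099 with the mean of probe sets, -0.076 and -0.23 in its other probe sets). The second probe set of Ercc5 was dim in F9 (mean signal 3.62). The cause of the turned signs was not tested. The median 95% interval of a member reached 0.60 to each side in liver, against 0.19 in F9, before adjustment for the number of genes.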
